A study of Mus musculus with 12 samples.

Results

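Hepatocytes around the central vein of the liver lobule depend on Wnt signals for a set of genes that other hepatocytes express less or not at all. The expression of 10 such genes (Glul, Slc1a2, Rhbg, Oat, Axin2, Lgr5, Tbx3, Cyp2e1, Rgn and Lect2) was examined here in mouse liver. They were chosen by name from the 18193 genes that at least 1 probe set named alone. The choice used no rule on their measured values, but earlier results of these data were known. A probe set is a group of short array probes with 1 summary signal, and each gene was represented by its brightest probe set among those annotated to that gene alone. The 10 genes had 21 such probe sets, of which 15 had a mean signal of at least 20 over the 12 arrays and 6 were dimmer, and 1 further probe set was shared with another gene. All 10 brightest probe sets passed the minimum of 20, as did those of 11099 genes in all.

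Total RNA came from the livers of C57BL/6 mice that were 8 weeks old at the start and were sampled after 8 weeks of feeding, with 1 Affymetrix array per mouse and 4 mice per group. The MCD+HF+Met group received a diet deficient in methionine and choline and high in fat, mixed with 0.1% metformin. The MCD+HF group received that diet without metformin, and the NC group received normal chow. The diet is a model of nonalcoholic steatohepatitis in which the deficiency, the fat and feeding over the whole period are given together, so their shares cannot be told apart. The labels do not give the sex of the mice. Signals are on a linear scale on which the authors had set the average of each array to 100, and the median probe set of an array lay between 19.0 and 23.0. Axin2, Lgr5 and Tbx3 were the dimmest of the 10 genes, with signals of 19.2 to 88.3 over the 12 arrays. All livers expressed the hepatocyte markers strongly, and none of the 8 that were named alone had a mean signal under 20 in any group.

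Blood flows through a lobule from the portal tracts to the central vein, and hepatocytes divide their tasks along that path. Endothelial cells of the central vein release Wnt ligands and R-spondins, which stabilise beta-catenin in the neighbouring hepatocytes and let it act with TCF factors on target genes. The targets include genes of glutamine synthesis and ammonia uptake, cytochrome P450 genes and the feedback genes of the pathway itself. Periportal hepatocytes, at the other end, carry urea synthesis and gluconeogenesis.

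Promoter windows were read for the letters that TCF factors are known to bind, as a description of these genes. The motif CTTTGAA and its forms ending in AT (CTTTGAT), in TA (CTTTGTA) and in TT (CTTTGTT) were searched on both strands in the 250 bases before the transcription start (RefSeq, GRCm38.p6). Windows were at hand for 6 of the 10 genes, and 3 of them held a motif (Cyp2e1, Slc1a2 and Lect2), against 14.8% of the 32851 windows of the table. The windows of Cyp2e1 and Lect2 are printed below with that of Glul, which held none. These 3 were picked by their brightest probe sets as deposited, where Cyp2e1 fell with the diet, Lect2 rose and Glul did not pass. A link between motif and diet change was not tested. Capitals mark the motif. The strands are those of the genes. The Cyp2e1 window is chr7:140763569-140763818 on the plus strand, and its CTTTGAA begins at base -135 from the start. The Lect2 window is chr13:56548560-56548788 on the minus strand, cut at the outermost RefSeq start of the gene, and its match reads ATCAAAG, which is CTTTGAT on the other strand. The Glul window is chr1:153899679-153899928 on the plus strand.
Cyp2e1: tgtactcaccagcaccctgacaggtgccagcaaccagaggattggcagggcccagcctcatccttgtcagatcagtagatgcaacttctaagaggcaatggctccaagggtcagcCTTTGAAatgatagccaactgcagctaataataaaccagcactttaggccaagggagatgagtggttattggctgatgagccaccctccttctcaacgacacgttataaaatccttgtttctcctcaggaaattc
Lect2: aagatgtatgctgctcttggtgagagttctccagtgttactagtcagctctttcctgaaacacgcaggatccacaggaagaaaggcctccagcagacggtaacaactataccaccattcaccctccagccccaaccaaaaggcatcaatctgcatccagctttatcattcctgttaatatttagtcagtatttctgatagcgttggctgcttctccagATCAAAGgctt
Glul: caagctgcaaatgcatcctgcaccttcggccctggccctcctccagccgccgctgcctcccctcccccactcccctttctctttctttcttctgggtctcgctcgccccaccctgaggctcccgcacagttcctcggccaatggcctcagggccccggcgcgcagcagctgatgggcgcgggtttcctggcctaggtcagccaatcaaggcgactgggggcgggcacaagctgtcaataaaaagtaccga
The windows of Slc1a2 and Axin2 lay at starts inside their genes and are not printed, and that of Oat held no motif. Tbx3, Rhbg, Rgn and Lgr5 are named only.

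With the MCD+HF diet, 7 of the 10 genes passed the test against NC, 2 higher and 5 lower, where 43.8% of the 22832 probe sets tested passed it (25.4% higher and 18.4% lower). With the arrays scaled to the hepatocyte markers, 19684 probe sets were higher and 489 lower, against 5808 and 4191 as deposited. Rhbg and Lect2 rose, and Rgn fell. Cyp2e1, Oat, Tbx3 and Lgr5 fell as deposited, but the direction of all 4 turned when the arrays were scaled to the hepatocyte markers. That of Cyp2e1 turned under quantile normalization too. Quantile normalization gives equal ranks the same value in every array, so it could not show a fall that the brightest probe sets share. Glul, Slc1a2 and Axin2 did not pass. The median log2 change of the 10 genes was -0.19, against 0.06 for all probe sets tested. The test was limma on log2(signal + 10) in 1 model of the 3 groups, with Benjamini-Hochberg adjustment over all 22832 probe sets and a threshold of 0.05. Changes on this scale are understated for dim probe sets.

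**Figure D1:**
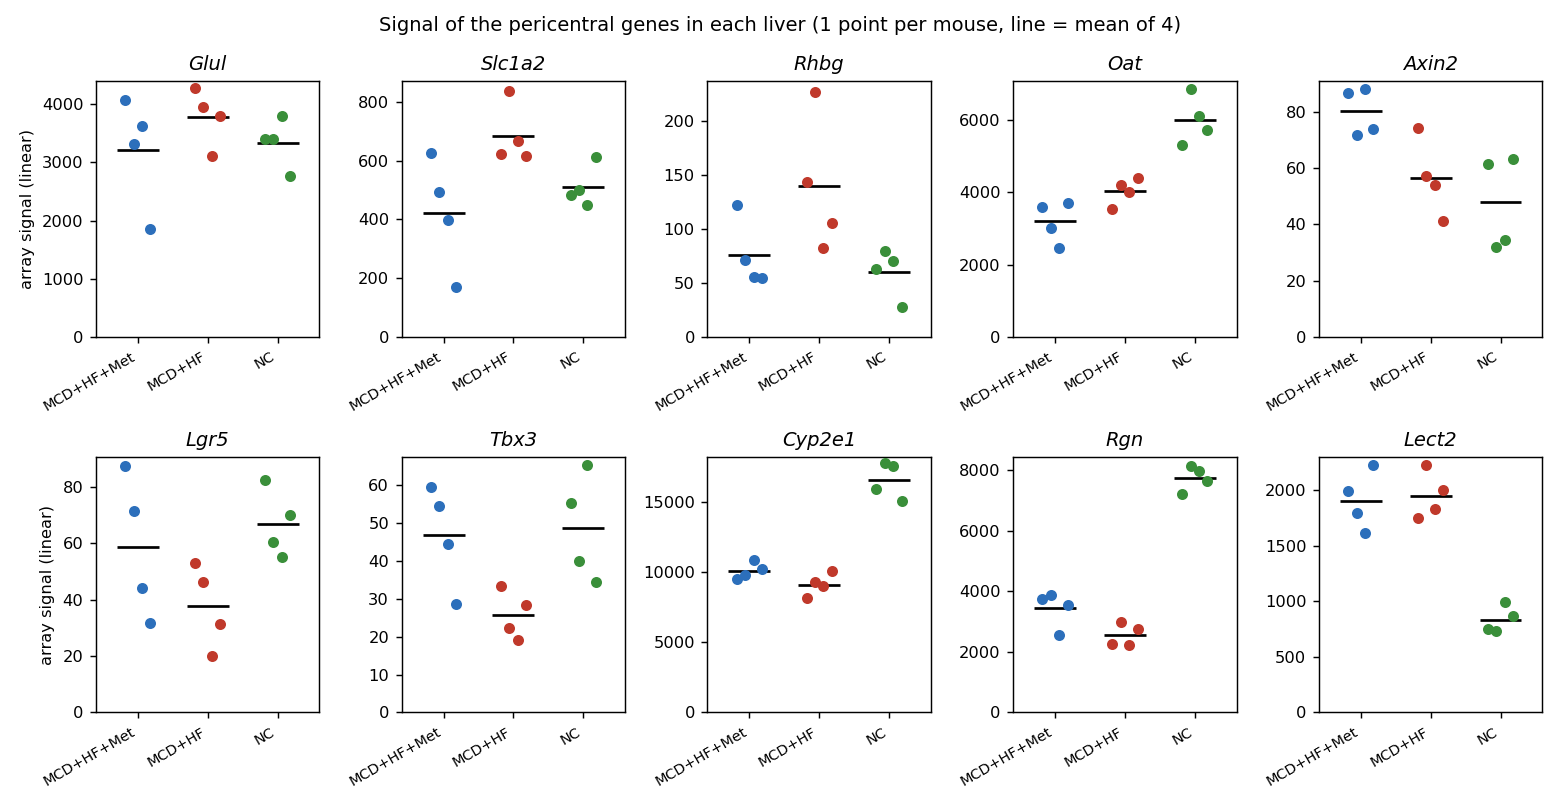
Linear array signal of the 10 genes, 1 panel per gene, with 1 point per mouse and a line at the mean of 4 mice, for MCD+HF+Met (left), MCD+HF (middle) and NC (right). The 4 NC signals of Rgn (7204.5 to 8150.3) lie above all signals of both diet groups, and the 4 NC signals of Lect2 (729.6 to 990.1) lie below them. The lower diet signals of Cyp2e1 are those of the deposited scaling. Quantile normalization could not show a fall shared by the brightest probe sets.

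Among the genes of nitrogen handling, Glul encodes glutamine synthetase, which joins ammonia to glutamate in the hepatocytes next to the central vein. Its signals (1426236_a_at) were 4070.2, 3324.4, 3623.2 and 1858.7 in MCD+HF+Met livers, 4279.8, 3954.4, 3111.6 and 3800.9 in MCD+HF livers, and 3401.6, 3404.6, 3800.6 and 2763.7 in NC livers. The groups overlapped throughout, and MCD+HF+Met mouse 4 was far below all other livers. The mean was 3219 ± 957 with metformin, 3787 ± 492 with the diet alone and 3343 ± 429 with chow (SD, n = 4 each), and neither neighbouring pair of these levels differed beyond its spread. MCD+HF differed from NC by 0.18 (SE 0.19, adjusted p = 0.467), with an interval of -0.22 to 0.58.

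A second Glul probe set, 1426235_a_at, gave another answer for the diet. Its signals were 2104.0, 1311.3, 1113.4 and 744.2 in MCD+HF+Met livers, 1916.6, 1853.9, 1574.7 and 1729.9 in MCD+HF livers, and 1050.5, 1049.1, 1198.3 and 990.3 in NC livers. All 4 MCD+HF livers were above all 4 NC livers, with a log2 change of 0.72 (SE 0.21, adjusted p = 0.0115). The brighter probe set passed too under quantile normalization (0.57, adjusted p = 0.0382). With the arrays scaled to the hepatocyte markers it was at 1.09 (adjusted p = 1.2e-04), where the median of all probe sets was 0.97. Relative to the median of all probe sets its change was 0.12, as deposited and with that scaling alike. In both probe sets MCD+HF+Met mouse 4 was the lowest of the 12 livers.

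Slc1a2 encodes a glutamate transporter of the cell membrane that pericentral hepatocytes carry. It had signals (1438194_at) of 625.9, 494.0, 397.9 and 168.9 in MCD+HF+Met livers, 621.3, 837.4, 666.8 and 614.4 in MCD+HF livers, and 481.8, 500.1, 447.2 and 612.8 in NC livers. The 4 MCD+HF livers were all above the 4 NC livers, by the narrowest of margins at 614.4 against 612.8, while the MCD+HF+Met livers reached from within the MCD+HF range down to the lowest value of all. MCD+HF averaged 685 ± 104 and NC 510.5 ± 71.7 (SD, n = 4 each), and the log2 change of 0.42 (SE 0.27) did not pass in the model of all 3 groups (adjusted p = 0.234). It passed in a model of those 2 groups alone (adjusted p = 0.0168) and with MCD+HF+Met mouse 4 left out (adjusted p = 0.0276). The spread of the metformin group enters the estimate that the 3 groups share. With scaling to the hepatocyte markers Slc1a2 was at 1.32 (adjusted p = 6.4e-04), where the median of all probe sets was 0.97. Of its dimmer probe sets, 1451627_a_at had the same log2 change of 0.42 (adjusted p = 0.0875), 1439940_at had 0.61 (adjusted p = 0.0578), and 1433094_at, with a mean signal of only 20.5, had -0.25 (adjusted p = 0.402).

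Rhbg is an ammonium transporter of the basolateral membrane, expressed in the same pericentral cells. Its signals (1419134_at) were 122.1, 71.5, 55.5 and 54.7 in MCD+HF+Met livers, 143.4, 227.5, 82.5 and 105.5 in MCD+HF livers, and 63.0, 80.0, 70.0 and 27.8 in NC livers. Every MCD+HF liver was above every NC liver, and the metformin livers overlapped with both. Rhbg rose with the diet to 139.7 ± 63.7, against 60.2 ± 22.7 in NC (SD, n = 4 each), a log2 change of 1.07 (SE 0.31, adjusted p = 0.0105). The methods' t-test after Benjamini-Hochberg adjustment did not call it (adjusted p = 0.0843). Scaling to the hepatocyte markers gave a change of 1.98 (adjusted p = 2.4e-05), but it raises every change of this comparison alike, so a rise could not turn.

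Oat, ornithine aminotransferase, turns ornithine into a precursor of glutamate. Signals (1416452_at) were 3588.7, 3019.7, 2455.9 and 3705.4 in MCD+HF+Met livers, 3544.9, 4214.0, 4006.6 and 4392.1 in MCD+HF livers, and 5300.1, 6863.0, 6117.4 and 5732.6 in NC livers. The NC livers stood above both diet groups, which overlapped with each other. The means were 3192 ± 575, 4039 ± 365 and 6003 ± 663 for MCD+HF+Met, MCD+HF and NC (SD, n = 4 each). As deposited, Oat fell with the diet by 0.57 on the log2 scale (SE 0.12, adjusted p = 0.00150), but the change was -0.11 under quantile normalization (adjusted p = 0.426) and 0.34, the opposite direction, with scaling to the hepatocyte markers (adjusted p = 0.00937).

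Of the genes that belong to the pathway itself, Axin2 encodes a scaffold of the beta-catenin destruction complex and is switched on by the pathway it restrains, so it is widely used as a readout of Wnt signalling. Its signals (1436845_at) were 86.9, 71.9, 88.3 and 74.1 in MCD+HF+Met livers, 74.5, 57.2, 54.1 and 41.1 in MCD+HF livers, and 61.6, 31.9, 34.6 and 63.5 in NC livers. All 4 metformin livers were above all 4 NC livers, while MCD+HF livers overlapped with both. The order of the means was MCD+HF+Met (80.3 ± 8.5), MCD+HF (56.72 ± 13.8) and NC (47.9 ± 17), with SD and n = 4 each, and neither neighbouring pair passed the test. MCD+HF differed from NC by 0.23 (SE 0.20, adjusted p = 0.372), with an interval of -0.19 to 0.65. Scaling to the hepatocyte markers turned this into a call (1.14, adjusted p = 3.5e-04), where the median of all probe sets was 0.97.

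Lgr5 encodes a receptor for R-spondins that strengthens the response to Wnt ligands. Signals (1450988_at) were 87.3, 71.5, 44.1 and 31.7 in MCD+HF+Met livers, 53.0, 46.4, 19.9 and 31.2 in MCD+HF livers, and 82.4, 60.3, 55.0 and 70.0 in NC livers. The 4 MCD+HF livers lay below the 4 NC livers, and the metformin livers overlapped with both. As deposited, Lgr5 fell to 37.62 ± 14.9 with the diet, against 66.92 ± 12 in NC (SD, n = 4 each), with a log2 change of -0.74 (SE 0.26, adjusted p = 0.0326). The change was -0.89 under quantile normalization (adjusted p = 0.00830), whereas scaling to the hepatocyte markers gave 0.17 (adjusted p = 0.599). The call was also lost without NC mouse 1 (adjusted p = 0.0884), NC mouse 4 (0.0637), MCD+HF mouse 3 (0.114) or MCD+HF mouse 4 (0.0727).

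Tbx3 encodes a T-box transcription factor that acts downstream of beta-catenin in hepatocytes. It had signals (1448029_at) of 59.6, 54.5, 44.6 and 28.7 in MCD+HF+Met livers, 33.4, 22.4, 19.2 and 28.5 in MCD+HF livers, and 55.3, 40.0, 65.3 and 34.5 in NC livers. The MCD+HF livers were all below the NC livers, with 33.4 and 34.5 as the closest values, and 3 of the 4 metformin livers were above every MCD+HF liver. As deposited, the mean fell to 25.88 ± 6.33 with the diet, against 48.78 ± 14.1 in NC (SD, n = 4 each), a log2 change of -0.70 (SE 0.21, adjusted p = 0.0148). The change was -0.85 under quantile normalization (adjusted p = 0.00352) but 0.21 with scaling to the hepatocyte markers (adjusted p = 0.422). It did not pass without NC mouse 3 (-0.57, adjusted p = 0.0519). A second probe set, 1437479_x_at, differed by -0.46 (adjusted p = 0.151), and the remaining 3 were dim, with mean signals of 9.65 or less.

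Cyp2e1, the ethanol-inducible cytochrome P450 of pericentral hepatocytes, had among the highest signals of the arrays. Signals (1415994_at) were 9516.7, 9803.9, 10838.2 and 10243.1 in MCD+HF+Met livers, 8129.8, 9287.3, 8980.6 and 10084.1 in MCD+HF livers, and 15914.9, 17751.3, 17547.8 and 15051.2 in NC livers. The NC livers lay far above both diet groups, which overlapped with each other. The means were 10100 ± 575, 9120 ± 808 and 16570 ± 1300 for MCD+HF+Met, MCD+HF and NC (SD, n = 4 each), so that the diet mean was 55.1% of the NC mean and the log2 change was -0.86 (SE 0.08, adjusted p = 7.1e-07) as deposited, against 0.15 (adjusted p = 0.0285) under quantile normalization and 0.05 (adjusted p = 0.504) with scaling to the hepatocyte markers. Within an array Cyp2e1 ranked between 6 and 13 from the top in MCD+HF+Met, between 3 and 13 in MCD+HF and between 17 and 23 in NC livers. The rank was thus higher in the diet groups while the signal was lower. Quantile normalization keeps only the rank, so for Cyp2e1 it could not show the lower signal.

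Rgn encodes regucalcin, a calcium-binding protein that also acts as a gluconolactonase. Its signals (1448852_at) were 3760.5, 3862.6, 2571.5 and 3535.4 in MCD+HF+Met livers, 2261.3, 2972.1, 2242.6 and 2742.4 in MCD+HF livers, and 7204.5, 8150.3, 7974.8 and 7633.2 in NC livers. Every NC liver was above every liver of the diet groups, and 3 of the 4 metformin livers were above all MCD+HF livers. Rgn fell to 2555 ± 362 with the diet, 33% of the 7741 ± 417 in NC (SD, n = 4 each), with a log2 change of -1.60 (SE 0.12, adjusted p = 7.1e-08). It remained lower under quantile normalization (-1.12, adjusted p = 4.1e-06) and with scaling to the hepatocyte markers (-0.70, adjusted p = 1.2e-04).

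Lect2 encodes leukocyte cell-derived chemotaxin 2, a protein that hepatocytes secrete into the blood. Signals (1449492_a_at) were 1989.4, 1792.8, 1613.6 and 2226.1 in MCD+HF+Met livers, 1751.4, 2227.3, 1830.0 and 2003.5 in MCD+HF livers, and 752.4, 729.6, 990.1 and 872.2 in NC livers. All 8 diet livers were above all 4 NC livers, and the diet groups overlapped fully. Lect2 rose to 1953 ± 211 with the diet, against 836.1 ± 120 in NC (SD, n = 4 each), with a log2 change of 1.22 (SE 0.12, adjusted p = 8.7e-07). The change was 1.37 under quantile normalization (adjusted p = 2.8e-07). It was 2.13 with scaling to the hepatocyte markers (adjusted p = 3.6e-10), which raises every change of this comparison alike.

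The scaling of the arrays changed several of these results. The mean of the 100 brightest probe sets was 7288 to 8738 in MCD+HF+Met livers, 6797 to 7909 in MCD+HF livers and 12400 to 14160 in NC livers, and these probe sets lie in the tail that the scaling to the average left out. All 8 general hepatocyte markers tested, among them albumin, were lower with the diet as deposited (median log2 change -0.97). Their median change was 0.00 under quantile normalization, which gives the brightest probe sets of every array the same values. Scaling to those 8 markers moved the median of all probe sets to 0.97 for MCD+HF against NC. Relative to the median of all probe sets, the change was -0.92 for Cyp2e1, -0.63 for Oat, -1.66 for Rgn and 1.16 for Lect2, as deposited and with that scaling alike, because a common factor per array moves every probe set by the same amount. In whole liver, fewer cells of a type and less RNA per cell cannot be told apart.

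**Figure D2:**
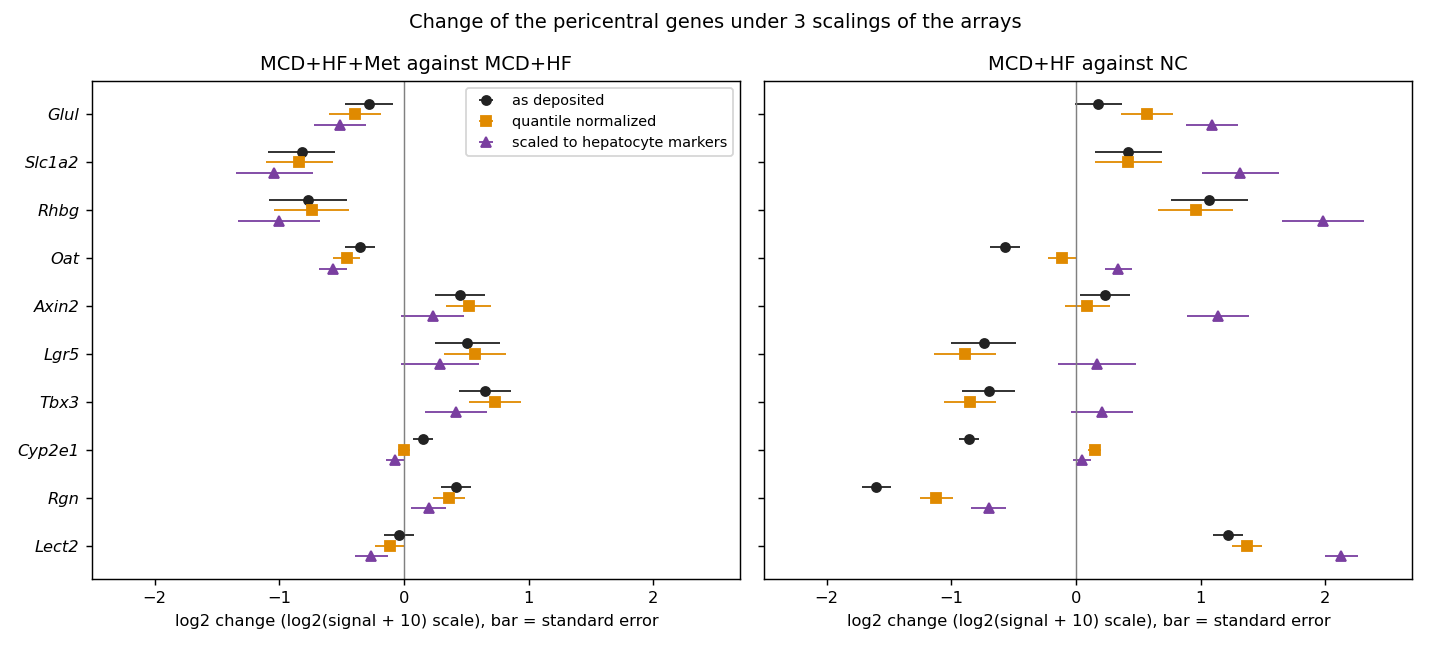
log2 change of the 10 genes for MCD+HF+Met against MCD+HF (left) and MCD+HF against NC (right), with the standard error as a bar, from signals as deposited (circles), after quantile normalization (squares) and scaled to 8 hepatocyte markers (triangles). For the diet, Rgn is below 0 and Rhbg and Lect2 are above 0 in all 3, where scaling to the hepatocyte markers moves every diet change up alike. Cyp2e1 lies at -0.86 as deposited, 0.15 and 0.05, and Oat, Tbx3 and Lgr5 cross 0 with the hepatocyte markers.

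Metformin given with the diet changed none of the 10 genes by the adjusted test against MCD+HF, where 3.44% of all probe sets passed (1.24% higher and 2.21% lower). With the hepatocyte markers 47 probe sets were higher and 1729 lower, against 282 and 504 as deposited. At an unadjusted p under 0.05, limma called 6 of them (Oat, Tbx3, Slc1a2, Rhbg, Rgn and Axin2), where 19.0% of all probe sets passed that rule. The methods' t-test called 3 at an unadjusted p under 0.05, where 17.8% of all probe sets passed, and of these 0 passed after adjustment and 1 (Tbx3) changed by over 1.5-fold, a rule that 3.93% of all probe sets met. The median log2 change of the 10 genes was 0.06, against -0.02 for all probe sets. Of the 10 changes, 5 were positive and 5 negative. This comparison and that of the diet with chow share the MCD+HF arrays.

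Rgn came nearest to the threshold. Its mean was 3432 ± 590 with metformin and 2555 ± 362 with the diet alone (SD, n = 4 each), a log2 change of 0.42 (SE 0.12, adjusted p = 0.0779) that passed, among the alternatives run, only without MCD+HF+Met mouse 3, the lowest of its group (0.55, adjusted p = 0.0133). Tbx3 differed by 0.65 (SE 0.21, adjusted p = 0.106), with means of 46.85 ± 13.6 and 25.88 ± 6.33 in MCD+HF+Met and MCD+HF, and was called without MCD+HF+Met mouse 4 (0.82, adjusted p = 0.0424). Its second probe set differed by 0.76 (adjusted p = 0.107). Axin2 differed by 0.45 (SE 0.20, adjusted p = 0.225) and Lgr5 by 0.51 (SE 0.26, adjusted p = 0.308). All 4 of these were above the diet alone on average, and for each of them the metformin group overlapped with the diet group.

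The glutamate and ammonium genes had means below those of the diet alone. Slc1a2 averaged 421.7 ± 193 in MCD+HF+Met and 685 ± 104 in MCD+HF (SD, n = 4 each), a log2 change of -0.82 (SE 0.27, adjusted p = 0.110). It was called without MCD+HF+Met mouse 1 (-1.05, adjusted p = 0.0454) and was -0.44 without MCD+HF+Met mouse 4. Scaling to the hepatocyte markers gave -1.04 (adjusted p = 0.0454), where the median of all probe sets was -0.24. Rhbg differed by -0.77 (SE 0.31, adjusted p = 0.184) and Glul by -0.28 (SE 0.19, adjusted p = 0.444), or by -0.52 for its second probe set (adjusted p = 0.191). Oat differed by -0.35 (SE 0.12, adjusted p = 0.126) and passed under quantile normalization (-0.46, adjusted p = 0.0323) and with scaling to the hepatocyte markers (-0.57, adjusted p = 0.00626). None of these 4 genes separated the 2 groups liver by liver.

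For the remaining members, the 95% interval of the metformin difference was -0.03 to 0.33 for Cyp2e1 (log2 change 0.15, adjusted p = 0.349) and -0.30 to 0.22 for Lect2 (-0.04, adjusted p = 0.899). It was -1.40 to -0.24 for Slc1a2, -1.43 to -0.12 for Rhbg and -0.05 to 1.07 for Lgr5. These intervals are not adjusted for the number of probe sets.

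Livers of the MCD+HF+Met group were also set against NC, to see which genes differed from chow with metformin in the diet, and 5 of the 10 genes passed, 2 higher and 3 lower, where 39.7% of all probe sets did (22.2% higher and 17.5% lower). With the hepatocyte markers 16719 probe sets were higher and 650 lower, against 5061 and 3996 as deposited. Lect2 was higher, at 1905 ± 263 against 836.1 ± 120 in NC (SD, n = 4 each), with a log2 change of 1.18 (SE 0.12, adjusted p = 1.7e-06), and Rgn was lower at -1.19 (SE 0.12, adjusted p = 2.2e-06). Both kept their direction under the other scalings, but for Lect2 the scaling to the hepatocyte markers could only raise the change. Oat was lower as deposited (-0.92, adjusted p = 2.5e-05) and under quantile normalization (-0.57, adjusted p = 8.0e-04), and with the hepatocyte markers it was at -0.24 (adjusted p = 0.0663). Cyp2e1 was lower as deposited (-0.71, adjusted p = 6.7e-06) but slightly higher under quantile normalization (0.16, adjusted p = 0.0303) and at -0.03 with the hepatocyte markers (adjusted p = 0.725). Here too quantile normalization could show only its rank.

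As deposited, Axin2 was the one gene that passed in this comparison and in neither of the others. Its log2 change between MCD+HF+Met and NC was 0.68 (SE 0.20, adjusted p = 0.0123), and it kept that direction under quantile normalization (0.61, adjusted p = 0.0159). With the hepatocyte markers, a scaling that raises every change of this comparison alike, it was 1.37 (adjusted p = 9.7e-05). The methods' t-test gave an adjusted p of 0.0685. Tbx3 (-0.05, adjusted p = 0.870), Lgr5 (-0.23, adjusted p = 0.516), Slc1a2 (-0.40, adjusted p = 0.259), Rhbg (0.30, adjusted p = 0.468) and Glul (-0.10, adjusted p = 0.692) did not pass. This comparison shares arrays with both others, and the difference between the diet's and metformin's changes was not tested apart from the comparisons given.

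Within the MCD+HF+Met group the livers fell into a pattern shared by several genes. Mouse 1 was the highest and mouse 4 the lowest for Glul, Slc1a2, Rhbg, Lgr5 and Tbx3, which is 5 of the 10 genes, whereas 11.6% of all probe sets tested had that order. The signal of mouse 1 over that of mouse 4 was 3.71 for Slc1a2, 2.75 for Lgr5, 2.23 for Rhbg, 2.19 for Glul and 2.08 for Tbx3. For the other 5 genes this ratio lay between 0.894 (Lect2) and 1.17 (Axin2). The pattern was noticed in the values and is given as a description with no test, and genes measured in the same livers are not independent.

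Mouse 4 of that group was the lowest of its 4 livers for 34.9% of all probe sets, against 21.4% to 22.0% for the other 3 livers. It was the highest for 26.5%, against 19.8% to 29.1% for the other 3, and the highest for Oat and Lect2. Among 14 other pericentral genes, 4 had the same order of mouse 1 and mouse 4 (Cyp2c29, Cyp2c37, Cyp7a1 and Ahr), and among 14 periportal genes only Cdh1 had it. Cyp1a2, another pericentral P450, had 1070.2, 1779.4, 1305.2 and 427.2 in the 4 livers, so it too was lowest in mouse 4 but highest in mouse 2. Cyp7a1, the rate-limiting enzyme of bile acid synthesis, had 1199.6 in mouse 1, against 254.6, 273.9 and 185.1 in the others. In the MCD+HF group, mouse 3 was the lowest for Glul, Rhbg, Lgr5, Tbx3 and Rgn, where it was the lowest for 27.2% of all probe sets.

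**Figure D3:**
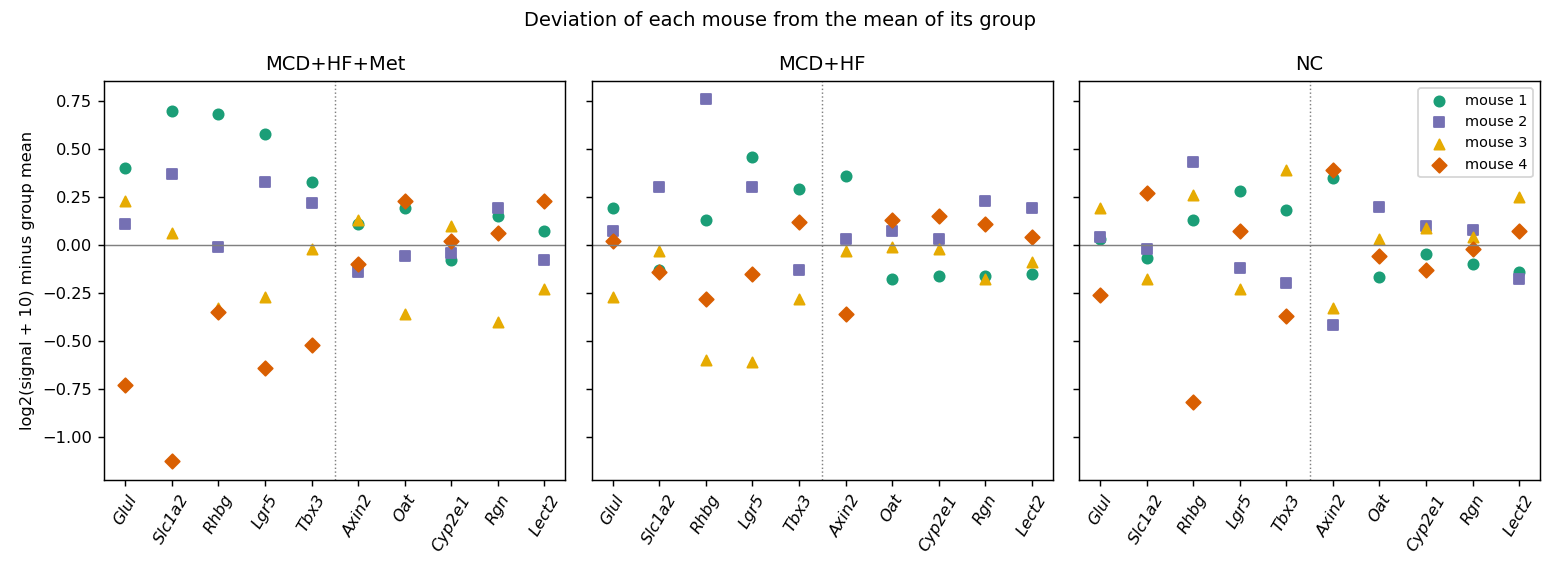
Deviation of each mouse from the mean of its group in log2(signal + 10), for the 10 genes along the horizontal axis, in MCD+HF+Met (left), MCD+HF (middle) and NC (right), with 1 symbol per mouse number. Left of the dotted line stand the 5 genes for which mouse 1 is highest and mouse 4 lowest with metformin, and the numbers were not taken to pair mice across panels.

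The genes whose pattern over the 12 arrays was most like that of 3 of the members were listed by the root mean square difference of their centred log2 values, among genes with a range of at least 0.5 of the member's own. Cyp2e1 was followed most closely by Apoe (0.05), Ndufb11 (0.06) and Rbp4 (0.07), where the median of 9545 genes was 0.51. Apoe averaged 9050, 8510 and 15900 in MCD+HF+Met, MCD+HF and NC livers. For Axin2 the nearest were Golm2 (0.18), Mzt1 (0.20) and R3hdm2 (0.20), with a median of 0.49 over 9007 genes, and for Glul they were Zfp956, Poglut2 and Pms2 (0.16 each), with a median of 0.44 over 9157 genes. Cyp2e1 thus had near matches on these arrays, and Axin2 and Glul had looser ones.

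Of 7 ligands of the pathway, Wnt9b, Rspo1 and Wnt5a were under the minimum signal. Of the 4 tested, Wnt4 and Rspo3 rose with the diet and Wnt11 fell as deposited, with a median log2 change of 0.64. Of all probe sets, 25.4% were higher and 18.4% lower. With scaling to the hepatocyte markers Wnt11 was at 0.28 and did not pass (adjusted p = 0.172). Rspo3, an R-spondin that central vein endothelium releases, averaged 123 ± 9.06 in MCD+HF+Met, 101 ± 18.5 in MCD+HF and 44.7 ± 13 in NC livers (SD, n = 4 each), with a log2 change of 1.04 for the diet (SE 0.16, adjusted p = 1.0e-04). All 8 diet livers (77.0 to 134.0) were above all NC livers (34.7 to 62.3). Wnt4 changed by 1.77 (adjusted p = 9.7e-04), but its NC signals of 1.7 to 42.1 had a mean of 20.2, next to the minimum of 20. Wnt2, a ligand of liver endothelium, differed by 0.24 with the diet (adjusted p = 0.247) and by 0.49 between MCD+HF+Met and NC (adjusted p = 0.0266). The call between MCD+HF+Met and NC was lost in 8 of 22 alternatives, among them quantile normalization (adjusted p = 0.0557), no filter (0.0565) and leaving out NC mouse 1 (0.0867) or MCD+HF+Met mouse 1 (0.0764) or 3 (0.0733).

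Of 16 receptors and transducers tested, 3 rose with the diet and 4 fell as deposited, with a median of 0.04. These are 18.8% and 25% of them, against 25.4% higher and 18.4% lower among all probe sets, and 43.8% in either direction. The Frizzled receptors Fzd6 (1.16, adjusted p = 9.1e-05) and Fzd1 (1.08, adjusted p = 2.0e-05) rose, and Fzd8 fell (-1.56, adjusted p = 2.7e-05). Lgr4, the R-spondin receptor that hepatocytes of all zones carry, fell as deposited (-0.89, adjusted p = 2.2e-06), but was at 0.02 with scaling to the hepatocyte markers. Ctnnb1, which encodes beta-catenin, differed by 0.03 (adjusted p = 0.802). Of 11 inhibitors, 4 rose and 3 fell as deposited (median 0.25). Frzb and Sfrp1, which encode secreted Frizzled-related proteins, had NC means under the minimum of 20 (15.4 and 17.1), so they were tested only through their signals in the diet groups. Frzb signals were 33.9 to 91.2 in MCD+HF+Met, 91.4 to 151.8 in MCD+HF and 5.7 to 20.7 in NC livers. Gsk3b (0.74) and Axin1 (0.51), both of the destruction complex, rose, and Btrc fell as deposited (-0.63) but was at 0.28 with the hepatocyte markers.

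Among 7 targets known from many tissues, 4 rose with the diet and 1 fell as deposited (median 0.41), where 25.4% of all probe sets were higher and 18.4% lower. The cell cycle gene Ccnd1 averaged 1550 ± 542 in MCD+HF+Met, 1540 ± 570 in MCD+HF and 186 ± 27 in NC livers (SD, n = 4 each), and rose by 2.91 with the diet (adjusted p = 4.3e-07). Myc rose by 1.99 (adjusted p = 1.6e-06) and Tnfrsf19 by 0.86 (adjusted p = 0.0302), but the call of Tnfrsf19 was lost in 6 of 23 alternatives, which were quantile normalization (adjusted p = 0.0508) and leaving out NC mouse 1 (0.0701), 2 (0.0564) or 3 (0.0616) or MCD+HF mouse 1 (0.0945) or 2 (0.0741). Notum, an enzyme that inactivates Wnt ligands, fell by 0.70 as deposited (adjusted p = 0.0168), but was at 0.21 with the hepatocyte markers, and it did not pass without NC mouse 4 (adjusted p = 0.0540) or MCD+HF mouse 3 (adjusted p = 0.0550). These genes respond to several pathways, and cells other than hepatocytes express them too. With metformin against the diet alone, 0 of the 4 ligands, 16 receptors and transducers, 11 inhibitors and 7 targets passed as deposited, where 3.44% of all probe sets did. With scaling to the hepatocyte markers 1 receptor or transducer and 1 target passed, both lower. For the diet, with scaling to the hepatocyte markers, where most probe sets rose with the diet, 3 ligands rose and 0 fell, 12 receptors and transducers rose and 1 fell, 10 inhibitors rose and 0 fell, and 6 targets rose and 0 fell.

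The members stood among other zonation genes that mostly fell with the diet as deposited. Of 14 other pericentral genes tested, 2 rose and 7 fell, with a median of -0.53. Of 14 periportal genes 1 rose and 11 fell, with a median of -0.90. Among all probe sets 25.4% were higher and 18.4% lower. With scaling to the hepatocyte markers 6 rose and 3 fell in either list, where 19684 probe sets were higher and 489 lower. Under quantile normalization these medians were -0.37 and -0.44 and that of the 10 genes was 0.12, and with scaling to the hepatocyte markers they were 0.38, 0.01 and 0.71. The pericentral Cyp2c29 fell by 2.11 (SE 0.20, adjusted p = 6.0e-07) and Cyp1a2 by 1.93 (adjusted p = 9.8e-05). The periportal Cyp2f2 fell by 3.23 (SE 0.18, adjusted p = 2.4e-09), to 1140 ± 238 in MCD+HF against 10600 ± 937 in NC livers, and Hal, the first enzyme of histidine breakdown, by 2.23 (adjusted p = 5.1e-08). As deposited, Gstm3, a glutathione transferase, was the one zonation gene that passed with metformin against the diet alone (0.79, SE 0.18, adjusted p = 0.0249), and it averaged 2330 ± 717 in MCD+HF+Met, 1300 ± 176 in MCD+HF and 428 ± 49.8 in NC livers (SD, n = 4 each). This call was lost in 7 of 23 alternatives, which were leaving out MCD+HF mouse 1 (adjusted p = 0.0596), 2 (0.0587) or 4 (0.0652) or MCD+HF+Met mouse 2 (0.0888) or 3 (0.0598), the methods' t-test after adjustment (0.203) and scaling to the hepatocyte markers (0.57, adjusted p = 0.0859). With that scaling 0 of the other pericentral genes passed as higher and 1 as lower, and 3 periportal genes passed as lower.

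**Figure D4:**
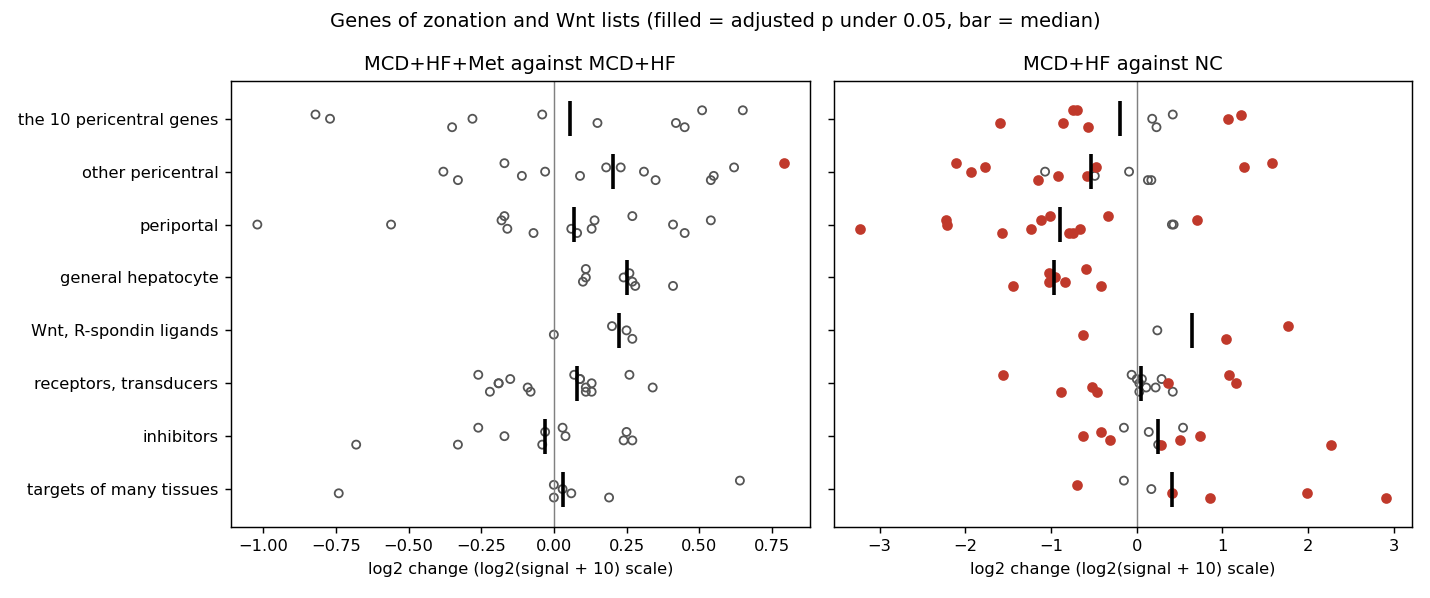
log2 change of each tested gene in 8 lists, for MCD+HF+Met against MCD+HF (left) and MCD+HF against NC (right), as deposited, with filled points for an adjusted p under 0.05 and a bar at the median of the list. With the diet the zonation and hepatocyte lists lie mostly below 0 (median -0.97 for the hepatocyte markers, which was 0.00 under quantile normalization), and with metformin the single filled point of the zonation lists is Gstm3, which did not pass with scaling to the hepatocyte markers.

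Markers of other liver cells moved with the same groups as deposited. Among all probe sets 25.4% were higher and 18.4% lower with the diet, and 1.24% and 2.21% with metformin. The summed signal of 8 hepatocyte markers was 59400 to 74000 in MCD+HF+Met, 51600 to 64400 in MCD+HF and 101000 to 116000 in NC livers. With the diet all 4 cholangiocyte markers tested rose (sums of 175 to 400, 273 to 362 and 22.8 to 67.6 in that order of groups) and all 4 had an NC mean under 20. Of 6 stellate cell markers 5 rose (sums of 1780 to 2850, 2130 to 2350 and 805 to 1040), among them Col1a1, with an NC mean of 17.1. These 4 cholangiocyte markers and Col1a1 were tested only through their signals in the diet groups. Of 6 macrophage markers, 4 rose and 1 fell with the diet, and 3 (Cd68, Csf1r and Lyz2) fell with metformin, with sums of 2370 to 3480, 4410 to 6740 and 2580 to 3200. Of 9 endothelial markers, 4 rose and 2 fell with the diet (sums of 1920 to 2140, 1800 to 2020 and 1500 to 1850), and the leukocyte gene Ptprc rose with the diet (1.23) and fell with metformin (-1.16), while Cd3e, Cd8a and Cd79a were dim. The ratio of 3' to 5' signal of beta-actin was 1.73 ± 0.114 in MCD+HF+Met, 1.54 ± 0.0694 in MCD+HF and 1.73 ± 0.14 in NC livers, and that of Gapdh was 0.757 ± 0.0451, 0.699 ± 0.0123 and 0.71 ± 0.0122 in the same groups (SD, n = 4 each). The part of these differences in the results of the 10 genes was not tested.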

How the data were processed

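Livers of 12 mice were measured, with 4 mice in each of the MCD+HF+Met, MCD+HF and NC groups. The authors hybridised 1 Affymetrix Mouse Genome array per liver and deposited 1 linear signal intensity per probe set, computed with GCOS (no version is given in the submitters' processing notes) and scaled to an average of 100. The mean of each array without the outer 2% of probe sets in each tail was 100. The deposited table had 45101 probe sets, and the 64 controls were left out. Groups and replicate numbers came from the labels. The authors' detection calls and other experiments were not used here.

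Probe sets with a mean of at least 20 over the 12 arrays (22832) were tested as log2(signal + 10) by moderated linear models (limma 3.58.1, R 4.3.3, with the prior variance following mean signal), in 1 model of the 3 groups with 9 residual degrees of freedom. Benjamini-Hochberg adjustment ran over all 22832, and standard errors and 95% intervals came from the same model. The methods' t-test was run on the same values, with over 1.5-fold and an unadjusted p under 0.05, or after adjustment. The script was tested on simulated data. Of the probe sets, 34945 named 1 gene, 932 several and 9160 none in the platform annotation, and 34741 symbols were matched by gene identifier to RefSeq. The number of arrays limits the precision.

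The 10 genes and all lists were chosen with earlier results of these data known. From each list, up to 4 genes called in a comparison were named, by the largest change, with defining genes that were not called. Genes nearest to a member were the 3 of smallest root mean square difference. Alternatives tried were an offset of 0 or 32, a minimum mean of 50 or none, the replicate number as a block, quantile normalization, robust variance estimation, the 2 groups alone, each array left out in turn, other probe sets and the t-test. Scaling to the 8 hepatocyte markers (each array shifted to an equal mean log2 value of them) was added after seeing the data. The deviations of same-numbered mice of different groups had r from -0.13 to 0.25 over 12 pairs (median 0.00). Over 36 pairs of different numbers r was -0.21 to 0.13 (median -0.01). The highest r, 0.25, was between mouse 4 of MCD+HF and mouse 4 of MCD+HF+Met. The methods name no pairing, and numbers were not taken as pairs. Figures were drawn with matplotlib 3.10.9.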

Additional observations from a re-analysis of the deposited data

Results flagged for a closer look

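The 108 groups of 4 livers examined covered the 10 genes and the list genes that were called in a comparison and named by the largest change. List genes named for other reasons, among them Cyp7a1, were not examined. Of the 108 groups, 2 held a liver far from the other 3, with a gap to the nearest liver over Dixon's critical share of the range for 4 values. None of the 30 groups of the 10 genes did. Chance alone flags about 1 in 20 such groups. Fzd6 was 59.6 in NC mouse 1, against 27.8 to 31.8 in the other NC livers. Hal was 1448.3 in NC mouse 2, against 1117.6 to 1129.2 in the other NC livers.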

How the results depend on the processing

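The number of probe sets that passed the test for MCD+HF against NC was 9999, and it was 8581 to 10337 with each array left out in turn, 6073 by the methods' t-test with over 1.5-fold and 20173 with scaling to the hepatocyte markers. For MCD+HF+Met against NC it was 9057, then 7918 to 8975, 5259 and 17369. For MCD+HF+Met against MCD+HF it was 786, and it was 254 to 837 with each array left out (254 without MCD+HF mouse 2 and 297 without MCD+HF+Met mouse 2), 476 with no filter on dim probe sets, 8 by the methods' t-test after adjustment and 1776 with the hepatocyte markers. Quantile normalization moved the split of calls for MCD+HF against NC to 4964 higher and 5263 lower, against 5808 and 4191 as deposited.

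Of the 10 genes, 7 passed for MCD+HF against NC and 5 for MCD+HF+Met against NC, and these counts were 6 to 8 and 5 with each array left out. For MCD+HF+Met against MCD+HF the count was 0, and it was 0 to 1 with each array left out (1 without MCD+HF+Met mouse 1, 3 or 4), 1 under quantile normalization (Oat), 2 with the hepatocyte markers (Oat and Slc1a2) and 1 by the methods' t-test with over 1.5-fold (Tbx3). The replicate number as a block gave 9941, 725 and 8980 probe sets for MCD+HF against NC, MCD+HF+Met against MCD+HF and MCD+HF+Met against NC, with 7, 0 and 5 of the 10 genes. It changed no call of the 10 genes.

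Directions turned mostly with the hepatocyte markers. For MCD+HF against NC the change was then 0.05 for Cyp2e1, 0.34 for Oat, 0.21 for Tbx3, 0.17 for Lgr5, 0.28 for Wnt11, 0.02 for Lgr4, 0.28 for Btrc and 0.21 for Notum. For MCD+HF+Met against MCD+HF it was -0.07 for Cyp2e1, and for MCD+HF+Met against NC it was 0.58 for Glul, 0.63 for Tbx3, 0.28 for Slc1a2, 0.46 for Lgr5, 0.06 for Wnt11 and 0.10 for Btrc. Quantile normalization turned Cyp2e1 to 0.15 for MCD+HF against NC and 0.16 for MCD+HF+Met against NC, and Glul to 0.18 for the second of these. For Cyp2e1 it could show only the rank among the brightest probe sets. With 1 array left out, small changes crossed 0: Lect2 for MCD+HF+Met against MCD+HF (-0.12 to 0.04), and for MCD+HF+Met against NC Glul (-0.24 to 0.14) and Tbx3 (-0.17 to 0.12). Other probe sets turned the sign for MCD+HF against NC in Slc1a2 (-0.25 and -0.19) and Axin2 (-0.01), for MCD+HF+Met against MCD+HF in Tbx3 (-0.14 and -0.04), and for MCD+HF+Met against NC in Glul (0.20), Tbx3 (0.30 and 0.21) and Slc1a2 (0.13). The cause was not tested. Rgn and Lect2 kept their direction and their call for MCD+HF against NC and MCD+HF+Met against NC under all 23 alternatives. For Lect2, scaling to the hepatocyte markers could only raise the change. The 4 arrays per group limit the precision.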
